A study of Mus musculus with 29 samples.

Results

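The 10 genes described here were Tbx6, Msgn1, Mesp1, Mixl1, Eomes, Snai1, Fgf8, Wnt3a, Dll1 and Axin2, a set of mesoderm and primitive streak genes chosen by symbol. They are 10 of the 21938 protein-coding genes of the mouse annotation. For each gene, all peaks touching the gene body or the 50 kb on either side of it were collected from 28 peak lists. Each list came from NIH-3T3 cells, a mouse fibroblast line, carrying a lentiviral transgene for 1 transcription factor with 3 HA tags at its C-terminus, induced overnight with doxycycline at 500 ng/ml. Cells were fixed in 1% formaldehyde and chromatin was precipitated with 1 anti-HA antibody for every factor and sequenced. The 28 lists covered 24 constructs: 21 wild-type factors (BHLHB8, BRACHYURY, CDX2, DLX1, DLX6, DUXBL, EBF1, FOXA1, HLF, MAX, NANOG, OCT4, PRR3, RHOX11, SIX6, SOX15, SOX2, TEAD1, THAP4, TOX3 and ZFP319), the FOXA1 mutants RR and SW, and OCT4-HA expressed together with SOX2-YPET. There were 2 lists each for SOX2-HA, OCT4-HA, FOXA1-HA and BHLHB8-HA and 1 for each of the other 20 constructs, so most values below had no replicate, and all of them are counts or shares of peaks without a test.

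During gastrulation, cells leave the epiblast through the primitive streak and become mesoderm and endoderm. Brachyury, the T-box protein encoded by T, and the caudal homeodomain protein CDX2 are both needed to form the posterior body, and Wnt and FGF signals maintain the posterior progenitors. Tbx6 and Msgn1 are regulators of presomitic mesoderm, Mesp1, Mixl1 and Eomes are switched on in or near the streak, and Snai1 represses epithelial genes as cells detach. NIH-3T3 cells are fibroblasts and not gastrula cells, so the peaks show where overexpressed factors were found on fibroblast chromatin.

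Every one of the 10 genes had at least 1 peak, which was also the case for 92.7% of all protein-coding genes. The 10 windows, 1112 kb in all, held 227 peaks, or 0.0744% of the 304922 peaks in the 28 lists. They made up 0.0420% of the known bases of the genome. The median window held 20 peaks, the same as the median over all protein-coding genes. Per 100 kb of window, the median was 17 peaks for the 10 genes and 14.65 for all genes. The median number of constructs was 6.5 for the 10 genes and 7 for all genes. Of the 227 peaks, 102 lay upstream of the member's start and 125 downstream of it, and 19 had their midpoint in a member's own gene body. For 107 peaks (47.1%) the nearest start site of any protein-coding transcript was the member's own. This share and the count in gene bodies were not set beside all protein-coding genes.

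**Figure D1:**
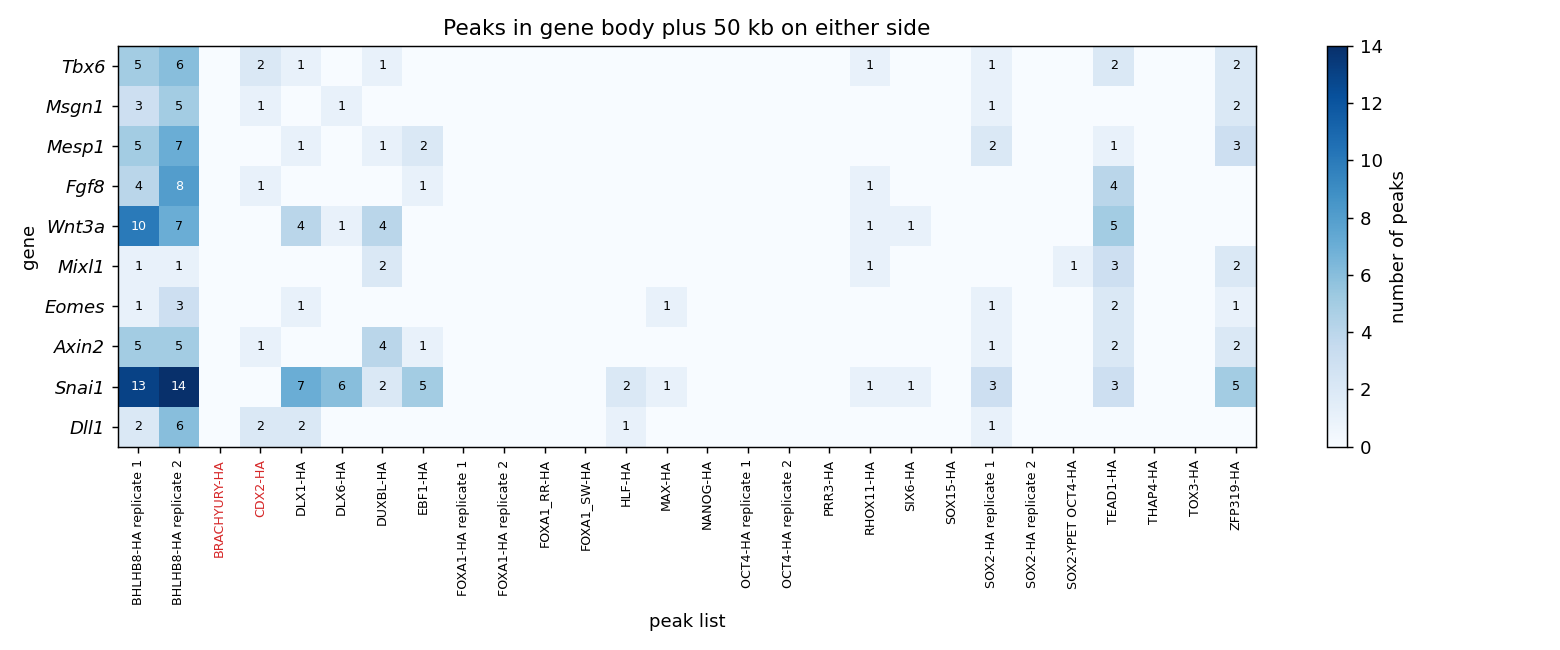
Number of peaks (colour and digits) of each of the 28 lists (columns) in the window of each gene (rows), the gene body plus 50 kb on either side; empty cells are 0. The BRACHYURY-HA column is empty, CDX2-HA has 7 peaks at 5 genes, and Snai1 holds the most peaks, 63.

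BRACHYURY-HA had no peak in any of the 10 windows. Over all protein-coding genes, 3.92% had a BRACHYURY-HA peak in the same kind of window, so 0 of 10 lies near that background. The whole BRACHYURY-HA list held 720 peaks. The nearest BRACHYURY-HA peak lay 120 kb upstream of Wnt3a, at chr11:59410952-59411124 in an intron of Snap47, and no other construct had a peak there. For the other 9 genes the nearest peak was between 458 kb (Snai1) and 5.65 Mb (Tbx6) from the start, at sites with peaks of 7 to 14 constructs. Sharing of this kind was common in the list: 44.4% of all BRACHYURY-HA peaks were at sites of 10 or more constructs and 5.00% were at sites of BRACHYURY-HA alone. The median distance was 920 kb for the 10 genes and 1541 kb for all protein-coding genes.

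The windows contained the letters of the T-box core at a density near that of the genome. TCACACC, read on both strands, occurred 165 times in the 10 windows, from 8 times around Mixl1 to 27 times around Snai1. This was 14.8 per 100 kb, beside 13.6 over the genome. None of these could lie in a BRACHYURY-HA peak, since the windows held no such peak. Over the genome, 0.0147% of TCACACC occurrences lay in a BRACHYURY-HA peak. The shorter TCACAC, which every TCACACC contains, occurred 771 times in the windows, or 69.4 per 100 kb, beside 63.1 over the genome. Among the BRACHYURY-HA peaks themselves, TCACAC stood in the central 200 bp of 21.0% and TCACACC in 5.83%. In the same central 200 bp, these shares were 9.4% and 1.7% in the CDX2-HA list and 7.7% and 1.3% in the TEAD1-HA list. Of all 32851 RefSeq promoters, 14.5% held TCACAC and 3.98% TCACACC. Other stretches of 200 bp were not counted, and no difference was tested.

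CDX2-HA had 7 peaks, in the windows of Tbx6 (2), Msgn1 (1), Fgf8 (1), Axin2 (1) and Dll1 (2), so 5 of the 10 genes had a peak, beside 56.4% of all protein-coding genes. Mesp1, Wnt3a, Mixl1, Eomes and Snai1 had none. None of the 7 was within 1 kb of a member's start, where 1.57% of all genes had a CDX2-HA peak and 0.0729% a BRACHYURY-HA peak. The closest, at chr19:45734649-45734983, lay 8.10 kb downstream of the start of Fgf8, which encodes an FGF ligand of the streak, and past the gene's end at 45736798 on the minus strand. Dll1, a Notch ligand that acts in somite formation, had 1 peak 11.3 kb upstream (chr17:15388093-15388310, nearest the start of Fam120b) and 1 peak 20.2 kb downstream (chr17:15356506-15356784). The Tbx6 peaks, at chr7:126744454-126744758 and chr7:126754124-126754378, were 36.9 and 27.2 kb upstream and nearer to Mapk3 than to Tbx6. The Msgn1 peak, at chr12:11254644-11254936, was 45.8 kb upstream in an intron of Gen1. The Axin2 peak, at chr11:108967463-108967729, was 47.2 kb downstream of the start and outside any protein-coding gene.

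All 7 CDX2-HA peaks were at sites where no other construct had a peak. In the whole CDX2-HA list of 25278 peaks, 77.7% were at such sites. The central 200 bp of 4 of the 7 peaks held the caudal letters TTTATNG on either strand (57.1%), against 53.7% of the whole list. These 4, at Msgn1, Axin2 and Dll1, are printed with the Fgf8 stretch, the nearest to a member start, which lacks the letters, as do both Tbx6 stretches. The sequences are the GRCm38 plus strand of chr12:11254690-11254889, chr11:108967496-108967695, chr17:15356545-15356744, chr17:15388101-15388300 and chr19:45734716-45734915, in this order, with matches to TTTATNG or its reverse complement in capitals.
Msgn1 upstream: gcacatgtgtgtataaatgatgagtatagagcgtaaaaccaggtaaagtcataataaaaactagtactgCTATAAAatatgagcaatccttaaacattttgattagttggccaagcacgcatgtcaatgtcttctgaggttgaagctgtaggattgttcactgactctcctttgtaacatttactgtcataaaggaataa
Axin2 downstream: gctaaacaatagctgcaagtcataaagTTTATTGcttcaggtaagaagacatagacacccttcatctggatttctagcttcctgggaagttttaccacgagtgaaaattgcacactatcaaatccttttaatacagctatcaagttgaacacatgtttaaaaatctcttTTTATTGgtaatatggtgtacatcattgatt
Dll1 downstream: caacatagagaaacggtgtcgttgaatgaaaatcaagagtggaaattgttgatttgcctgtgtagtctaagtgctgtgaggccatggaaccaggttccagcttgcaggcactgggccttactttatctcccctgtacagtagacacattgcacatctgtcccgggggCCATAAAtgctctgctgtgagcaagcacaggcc
Dll1 upstream: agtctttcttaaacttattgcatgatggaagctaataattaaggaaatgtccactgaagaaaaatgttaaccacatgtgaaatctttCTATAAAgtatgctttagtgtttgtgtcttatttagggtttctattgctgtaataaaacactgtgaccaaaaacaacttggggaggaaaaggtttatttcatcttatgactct
Fgf8 downstream: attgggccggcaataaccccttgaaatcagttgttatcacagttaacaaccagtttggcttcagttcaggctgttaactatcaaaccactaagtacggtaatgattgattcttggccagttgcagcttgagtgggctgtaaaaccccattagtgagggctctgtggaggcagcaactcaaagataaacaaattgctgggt

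The Axin2 stretch held 2 matches and the other 3 marked stretches held 1 each. The median GC content was 35% for the 7 stretches and 36% for the whole CDX2-HA list, and none of the 7 held the AP-1 letters TGANTCA, which stood in 18.6% of the list. Counted over whole windows rather than peaks, TTTATNG occurred 512 times around the 10 genes, from 36 times at Mesp1 to 76 at Msgn1. This was 46.1 per 100 kb, beside 70.5 over the genome. Of the 512, 8 (1.56%) lay in a CDX2-HA peak, against 1.30% over the genome. CDX2-HA peaks themselves numbered 6.30 per Mb in the windows and 9.55 per Mb over the genome. For the 5 genes with no CDX2-HA peak in the window, the nearest one was 74.3 kb from the start of Snai1, 220 kb from Mixl1, 229 kb from Wnt3a, 420 kb from Eomes and 505 kb from Mesp1. The last of these was among the far ones, since 93.5% of all protein-coding genes had a CDX2-HA peak at least as near. Over the 10 genes the median distance was 60.8 kb, and over all genes it was 51.0 kb.

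**Figure D2:**
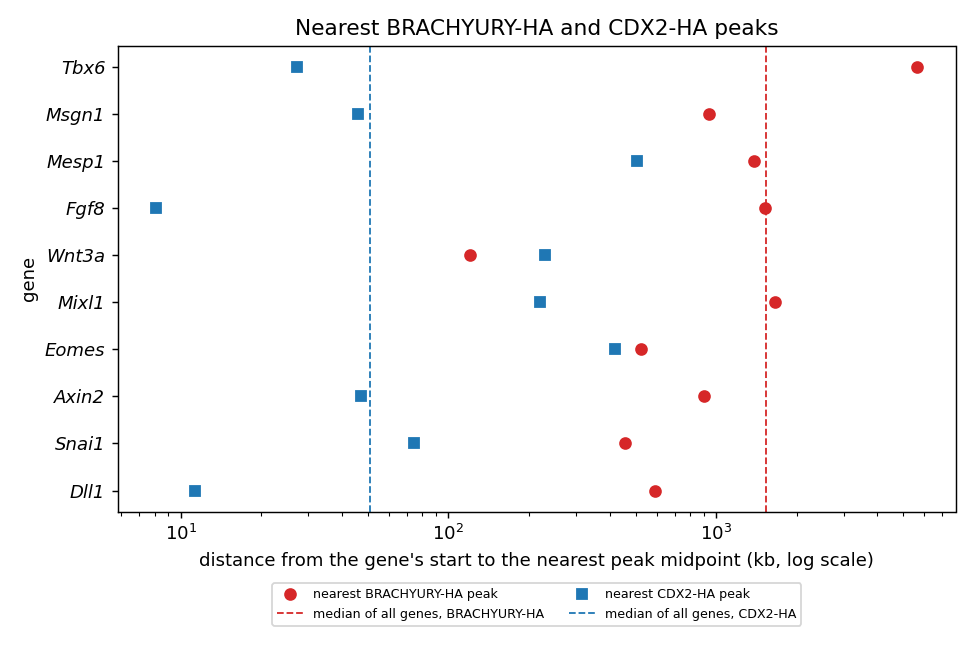
Distance in kb (log axis) from each gene's start to the midpoint of the nearest BRACHYURY-HA peak (circles) and CDX2-HA peak (squares); dashed lines are the medians over all protein-coding genes, 1541 and 51.0 kb. In 9 genes the CDX2-HA peak was the nearer one, and at Wnt3a the BRACHYURY-HA peak was, at 120 against 229 kb.

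Set beside these, 14 constructs had a peak in at least 1 window and 10 had none. BHLHB8-HA, a basic helix-loop-helix factor, had peaks at all 10 genes (background 86.0%), and each of its duplicate lists had them at all 10 (77.2% and 84.4%), as had both lists together (75.6%). TEAD1-HA, a TEA domain factor, had peaks at 8 genes (68.8%), missing Msgn1 and Dll1. SOX2-HA and ZFP319-HA each had peaks at 7 (57.8% and 59.4%), and DLX1-HA and DUXBL-HA at 6 (60.5% and 64.2%). RHOX11-HA had peaks at 5 (34.3%), EBF1-HA at 4 (38.8%), DLX6-HA at 3 (53.1%), and HLF-HA, MAX-HA and SIX6-HA at 2 (15.6%, 23.0% and 27.8%). OCT4-HA expressed with SOX2-YPET had 1 peak, in the Mixl1 window (15.9%), while OCT4-HA alone had none (0.766%). Besides BRACHYURY-HA and OCT4-HA, no peak was listed for FOXA1-HA (28.2%), its mutants RR (0.921%) and SW (0.884%), SOX15-HA (22.0%), TOX3-HA (10.1%), NANOG-HA (1.82%), PRR3-HA (0.451%) and THAP4-HA (0.447%). The share of the 10 genes was thus above the background for some constructs, such as RHOX11-HA, and below it for others, such as FOXA1-HA and DLX6-HA. Where the background was 1.82% or less, a count of 0 among 10 genes says little. None of these differences was tested.

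**Figure D3:**
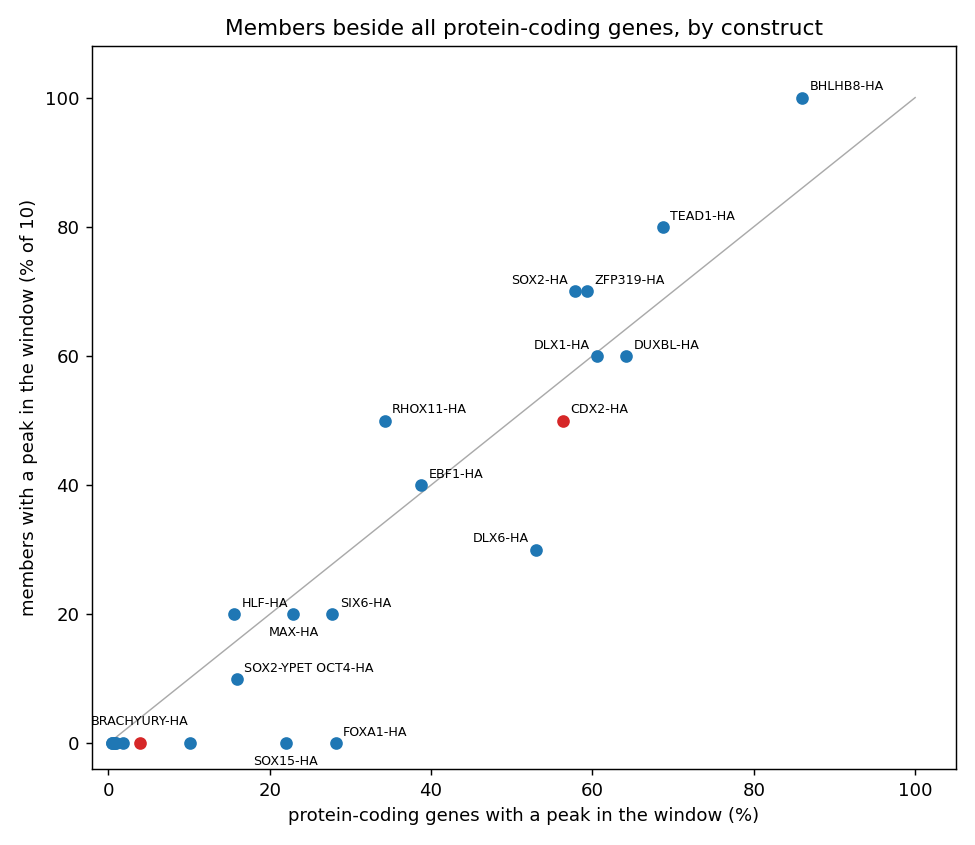
Share of the 10 genes with a peak in the window (vertical axis, %) against the share of all 21938 protein-coding genes (horizontal axis, %), 1 point per construct; the line marks equal shares, BRACHYURY-HA and CDX2-HA are red, and unlabelled points at 0 are constructs with backgrounds of up to 10.1%. CDX2-HA lies at 50% beside 56.4%, and BRACHYURY-HA at 0 beside 3.92%.

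At the gene starts, the construct seen most often was TEAD1-HA. Its peaks had their midpoint within 1 kb of the start at 6 of the 10 genes, Mesp1, Fgf8, Wnt3a, Mixl1, Eomes and Axin2, beside 28.8% of all protein-coding genes. A peak of any construct lay within 1 kb of the start at 7 genes, beside 55.8% of all genes. At Mesp1, Fgf8, Wnt3a, Mixl1 and Eomes, TEAD1-HA was the only construct at that site. The 22 TEAD1-HA peaks in the windows had a median GC content of 72.8% and 22.5 CpG in their central 200 bp, against 64.0% and 15 in the whole list. The TEAD letters CATTCC stood in 5 of the 22 (22.7%) and in 4.49% of the list. Of the 6 peaks at starts, only that of Fgf8 held them. BHLHB8-HA had a peak there at 2 genes, Axin2 and Snai1 (42.3%), DLX1-HA at Snai1 (11.0%) and EBF1-HA at Axin2 (5.09%). No construct had a peak within 1 kb of the start of Tbx6, Msgn1 or Dll1. The part of CpG content in these positions was not tested, and the TEAD1-HA list had no duplicate.

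**Figure D4:**
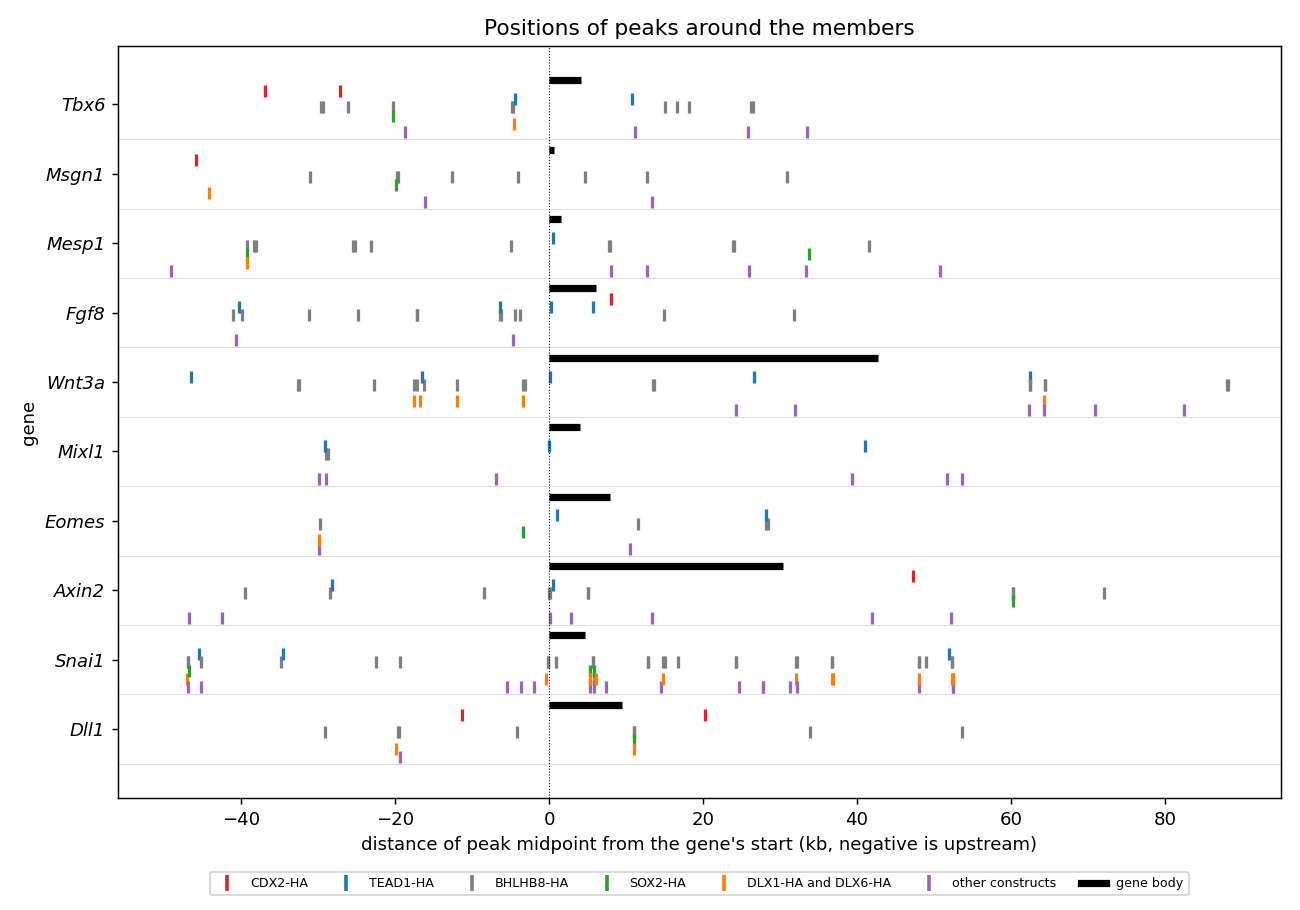
Positions of all 227 peaks around the 10 genes, as distance of the peak midpoint from the gene's start in kb (negative is upstream in the gene's direction); black bars are gene bodies and colours are constructs. Blue TEAD1-HA marks stand at the start of 6 genes, and the 7 red CDX2-HA marks lie 8.10 to 47.2 kb away.

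Among the transcription factors, Tbx6 (chr7:126781483-126785560, plus strand) had 21 peaks of 8 constructs, and not 1 of them had Tbx6 as its nearest start site. Its window held 8 other protein-coding entries of the annotation, among them Mapk3, Ypel3 and Ppp4c, with Aldoa entered more than once. The most shared site, chr7:126776173-126777176, held both BHLHB8-HA lists, DLX1-HA and TEAD1-HA and lay 4.81 kb upstream of Tbx6, within 1 kb of a start of Ypel3. Another site held TEAD1-HA and RHOX11-HA at a start of Ppp4c. At Tbx6, then, the listed peaks lay at or nearer to its neighbours.

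Msgn1 (chr12:11208360-11208972, minus strand), which encodes the helix-loop-helix factor mesogenin, had 13 peaks of 5 constructs, and 9 of them were nearest to Msgn1. They comprised 3 and 5 peaks in the BHLHB8-HA lists, 2 of ZFP319-HA and 1 each of CDX2-HA, DLX6-HA and SOX2-HA. No peak lay in the gene body. The only site with more than 1 construct was 19.7 kb upstream, at chr12:11228417-11228998, where both BHLHB8-HA lists and SOX2-HA met.

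Mesp1 (chr7:79792241-79793788, minus strand), a helix-loop-helix factor of early mesoderm, had 22 peaks of 7 constructs, 8 of them nearest to Mesp1. Its window also held the paralogue Mesp2, and Pex11a, Wdr93 and Anpep. A TEAD1-HA peak at chr7:79793087-79793458, 0.516 kb downstream of the start, was the only peak in the gene body. The site with most constructs, chr7:79832803-79833385, held BHLHB8-HA, DLX1-HA and SOX2-HA in an intron of Anpep. Of the promoter sequences searched, 9 RefSeq entries for 8 of the 10 genes on GRCm38, Mesp1 had the only one with TCACACC, which 3.98% of all 32851 promoters of that length held.

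Mixl1 (chr1:180693043-180697034, minus strand), a paired-like homeobox gene, had 11 peaks of 6 constructs, and only 2 were nearest to it. These were a TEAD1-HA peak over the start (chr1:180696866-180697255) and a ZFP319-HA peak 6.96 kb upstream. The site with most constructs (BHLHB8-HA, RHOX11-HA and TEAD1-HA) was at a start of Acbd3, 28.9 kb upstream. The peak of OCT4-HA with SOX2-YPET was 39.4 kb downstream in an intron of Lin9.

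Eomes (chr9:118478212-118486132, plus strand), a T-box gene of the streak, had the fewest peaks, 10 of 6 constructs, and 71.4% of all genes had as many or more. Of these 10 peaks, 7 were nearest to Eomes. BHLHB8-HA, DLX1-HA and MAX-HA shared a site 29.9 kb upstream at chr9:118448128-118448553. A SOX2-HA peak 3.45 kb upstream and a TEAD1-HA peak 0.958 kb downstream of the start each stood at a site of their own.

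Snai1 (chr2:167538195-167542814, plus strand), a zinc finger repressor of E-cadherin, had the most peaks of the 10. It had 63 peaks of 12 constructs at 26 sites, where the other 9 genes had 10 to 33 peaks of 5 to 8 constructs. As many peaks or more were found at 5.89% of all protein-coding genes, and as high a number per 100 kb (60.2) at 1.29%. The BHLHB8-HA lists gave 13 and 14 peaks, DLX1-HA 7, DLX6-HA 6, EBF1-HA 5 and ZFP319-HA 5. Without both BHLHB8-HA lists it would therefore still have the most. The start of Snai1 was the nearest one for 39 of the 63 peaks.

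The site with the most constructs in any of the 10 windows began just past the end of Snai1, at chr2:167542997-167544676. It held 10 peaks of 6 constructs, BHLHB8-HA, DLX1-HA, DLX6-HA, EBF1-HA, MAX-HA and SOX2-HA. A second site, of 5 constructs, lay 52.4 kb downstream at chr2:167590387-167590786, nearest to Ube2v1. No other site in the windows had 5 or more constructs, and none had 10 or more. A DLX1-HA peak lay 0.454 kb upstream of the Snai1 start. Over the start itself, both BHLHB8-HA lists had a peak (site chr2:167537913-167538234). The bases before the start under both of those peaks are printed because they hold 1 E-box, with the letters CANNTG in capitals. The stretch in the middle of the longest run shared by 6 lists at the downstream site is printed beside it, and held neither CANNTG nor TGANTCA. Both are the GRCm38 plus strand, chr2:167537933-167538194 and chr2:167543409-167543608.
Snai1 start: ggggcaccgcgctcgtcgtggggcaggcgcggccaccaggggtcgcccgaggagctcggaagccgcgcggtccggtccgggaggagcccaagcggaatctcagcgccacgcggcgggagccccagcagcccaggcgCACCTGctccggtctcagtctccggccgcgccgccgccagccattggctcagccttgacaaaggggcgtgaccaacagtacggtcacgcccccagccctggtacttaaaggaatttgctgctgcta
Snai1 downstream: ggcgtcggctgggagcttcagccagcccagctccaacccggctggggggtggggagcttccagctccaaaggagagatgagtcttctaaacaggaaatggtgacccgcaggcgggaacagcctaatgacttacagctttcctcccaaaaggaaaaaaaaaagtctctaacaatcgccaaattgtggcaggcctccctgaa

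**Figure D5:**
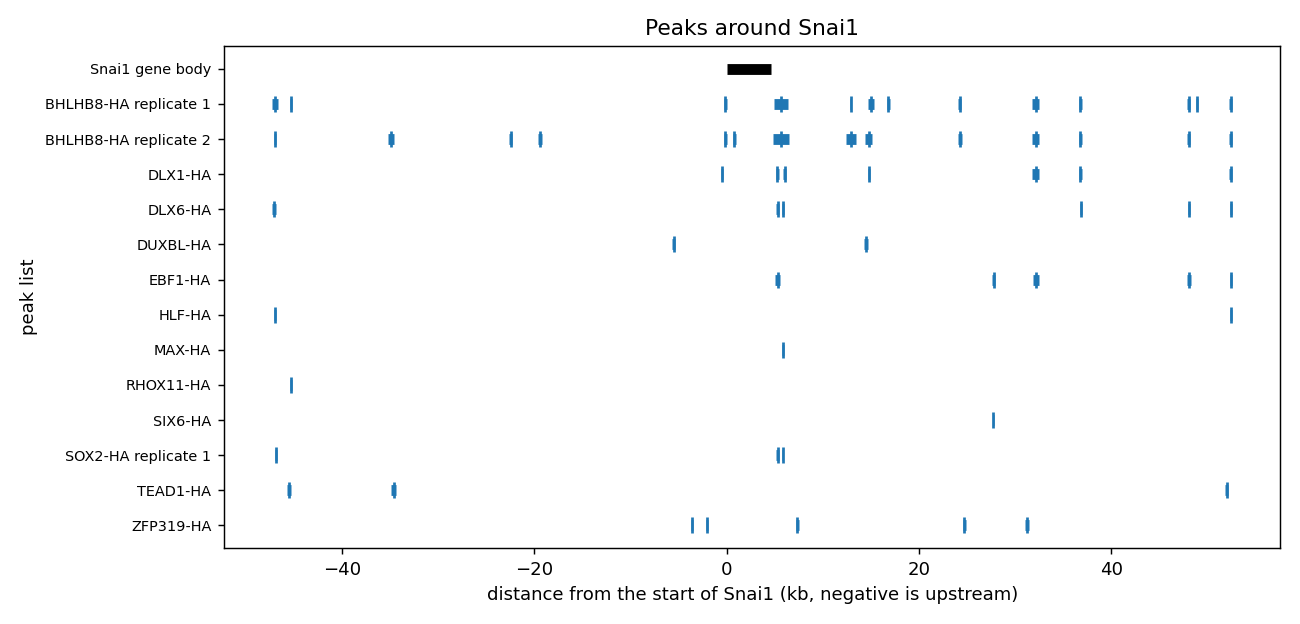
Peaks of the 13 lists with a peak in the Snai1 window (rows), as distance from the start of Snai1 in kb (negative is upstream); bars give peak widths, ticks midpoints, and the black bar the gene body. The lists line up just downstream of the gene, at 5.64 kb, and again at 52.4 kb.

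Among the signalling genes, Fgf8 (chr19:45736798-45742915, minus strand) had 19 peaks of 5 constructs, 5 of them nearest to Fgf8. TEAD1-HA had 4 peaks here, 1 of them 0.183 kb downstream of the start and 1 over a coding exon 5.71 kb downstream. The other TEAD1-HA peaks were shared with BHLHB8-HA at starts of Npm3 and Mgea5, and EBF1-HA shared a site with BHLHB8-HA 4.72 kb upstream. Wnt3a (chr11:59248033-59290752, minus strand), which encodes a Wnt ligand, had 33 peaks of 7 constructs in a window that also held Wnt9a and Arf1, and 8 of these were nearest to Wnt3a. TEAD1-HA had 5 peaks and DLX1-HA and DUXBL-HA 4 each. A TEAD1-HA peak lay 0.165 kb downstream of the Wnt3a start, and the site with most peaks, 6 of 3 constructs, lay 17.0 kb upstream at a start of Wnt9a.

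Dll1 (chr17:15367354-15376872, minus strand) had 14 peaks of 5 constructs, none in the gene body. BHLHB8-HA, DLX1-HA and SOX2-HA shared a site 11.0 kb downstream of the start, at chr17:15365622-15366098, and BHLHB8-HA, DLX1-HA and HLF-HA shared another at a start of Fam120b. Axin2 (chr11:108920349-108950783, plus strand), a feedback inhibitor of Wnt signalling, had 21 peaks of 7 constructs. No other protein-coding gene lay in its window, and all 21 peaks were nearest to Axin2. At its start, BHLHB8-HA in both lists, EBF1-HA and TEAD1-HA shared the site chr11:108920201-108921480. It was the only member start with peaks of more than 1 construct at 1 site.

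Duplicate lists gave different pictures for BHLHB8-HA and SOX2-HA. BHLHB8-HA had 49 peaks in the windows in replicate 1 and 62 in replicate 2. Of these, 32 of the 49 (65.3%) and 32 of the 62 (51.6%) overlapped a peak of the other list by at least 1 bp, against 53.3% and 39.2% over the whole lists, and each of the 10 genes had an overlapping pair. The E-box CANNTG stood in 77.6% and 79.0% of them, against 83.9% and 79.9% of the lists. SOX2-HA had 10 peaks at 7 genes in replicate 1 (background 57.3%) and 0 in replicate 2 (25.6%), whose list was shorter, with 5692 peaks against 25049. Over the whole lists, 21.0% of replicate 1 overlapped replicate 2, and 92.8% of the shorter replicate 2 overlapped replicate 1. The SOX letters ACAANG stood in 8 of the 10 peaks (80.0%) and in 60.7% of the replicate 1 list. All SOX2-HA peaks in the windows were thus from replicate 1.

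Most sites in the windows belonged to 1 construct. The 227 peaks formed 133 merged sites, of which 100 (75.2%) had 1 construct, against 76.3% of the 168506 sites in the genome. BHLHB8-HA was present at 78 sites, and both of its lists at 32. DLX1-HA shared 13 of its 14 sites with BHLHB8-HA, and DLX6-HA 6 of its 7, beside 77.4% and 68.2% of their sites in the genome. ZFP319-HA stood alone for 16 of its 17 peaks, beside 73.9% of its whole list, and DUXBL-HA for 11 of 14, beside 75.9%. The DLX1-HA peaks held the homeodomain letters TAATTA in 0 of 16 cases, against 8.31% of the list, and TGANTCA in 6 of 16 (37.5%), against 34.0%.

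The same windows were counted for 70 other genes of gastrulation, in 6 lists of streak and node factors, Wnt, FGF, Nodal and BMP, and Notch pathway genes, genes of the mesenchymal transition, and paraxial and lateral mesoderm genes. At least 1 peak was found at 69 of them (98.6%), beside 92.7% of all protein-coding genes. Rspo3, a secreted enhancer of Wnt signalling, had none. CDX2-HA had a peak at 42 of the 70 (60.0%), near the 56.4% of all protein-coding genes. By list, and beside the same 56.4%, this was 7 of 11 streak and node factors, 6 of 11 Wnt genes, 6 of 14 FGF, Nodal and BMP genes, 7 of 11 Notch genes, 8 of 9 genes of the mesenchymal transition and 8 of 14 paraxial and lateral mesoderm genes. TEAD1-HA was within 1 kb of the start at 25 of the 70 (35.7%), beside 28.8% of all genes. The most constructs were found at Rbpj (17), Snai2 (17), Etv4 (16), Cdh1 (15) and Cdh2 (15). These counts, and those of CDX2-HA by list, were not adjusted for gene length, and longer genes have longer windows.

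BRACHYURY-HA had a peak at 4 of these 70 genes (5.71%), near the 3.92% of all protein-coding genes. They were T itself, Etv4, an ETS factor downstream of FGF, Rbpj, the DNA-binding partner of Notch, and the caudal gene Cdx1. The peaks of Etv4, Rbpj and Cdx1 were at sites of 6 to 10 constructs. The 3 peaks in T, at chr17:8436005-8436187, chr17:8436511-8436723 and chr17:8440764-8441685, were at sites of BRACHYURY-HA alone. Of these, 2 overlapped coding exons of T, and the transgene carries the coding sequence of the same gene. The part of the transgene in these peaks was not tested.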

How the data were processed

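The series held 29 samples, of which 28 had a peak list and 1 was input chromatin, not used here. Per the submitters' processing notes and the study's methods, the authors aligned reads to mm10 with STAR 2.5.3a, removed duplicates with Picard and called peaks per sample with MACS2 2.1.1.20160309, then filtered them. The deposited files hold 3 columns of peak coordinates, without height or score, so the depth behind each list is unknown and longer lists reach more genes.

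Genes and start sites came from GENCODE vM21 on GRCm38, and printed coordinates are on this build and count from 1. The labelled cell type was not checked against markers, since no expression was measured. A peak belonged to a gene when it overlapped the gene body or 50 kb on either side by at least 1 bp. Peaks that touched were merged into sites. Distances run from the gene's start to the peak midpoint. Motif letters were searched on both strands in the central 200 bp, and promoters came from RefSeq. Backgrounds are shares of all protein-coding genes, peaks or promoters. The text names all 10 genes, every BRACHYURY-HA and CDX2-HA peak in their windows, the most shared sites, sites over starts and, of the 70 other genes, those with a BRACHYURY-HA peak, with no peak or with the most constructs. The genes and lists were chosen with earlier results of these data known. Python 3.11.15, NumPy 2.4.6 and Matplotlib 3.10.9 were used, and the counting was tested on simulated intervals.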

Additional observations from a re-analysis of the deposited data

How the results depend on the processing

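No paired analysis was possible because the values come from no test. With 100 kb flanks, there was still no BRACHYURY-HA peak at any of the 10 genes. The other alternative runs for BRACHYURY-HA could only remove peaks, so they could not change this result. Peaks, merged sites and genes with a CDX2-HA peak were 227, 133 and 5 as reported. They were 74, 43 and 1 with 10 kb flanks, and 125, 81 and 2 with peaks of at least 300 bp. Counting peaks whose nearest start was the member's gave 107, 65 and 3, and left 9 genes with a peak. With 100 kb flanks there were 390 peaks, 227 sites and 6 genes with a CDX2-HA peak. No share of all protein-coding genes is given at these changed settings, so the gene counts cannot be set beside a background. Leaving out 1 duplicate list at a time gave 165 to 227 peaks and 110 to 133 sites, with all 10 genes kept. Chosen after seeing the data, leaving out both BHLHB8-HA lists gave 116 peaks and 90 sites. In all, 52 of 64 alternative values stayed within 1.5 times the reported one. Several of these could not move. Some left out lists with no peak in the windows, or sites of 10 or more constructs, of which the windows held none. Others only removed peaks from the BRACHYURY-HA count, which was already 0. The tally is therefore not a measure of stability. Depth is unknown, so a gene without a listed peak is not shown to be unbound.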
